A study of Homo sapiens with 24 samples.

Results

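The heat-inducible genes of the HSP70 chaperone family are HSPA6, HSPA7, HSPA1A, HSPA1B and HSPA1L. These 5 genes, of 57500 in the count tables, were picked by name, by matching their GENCODE v29 symbols to the Ensembl identifiers of the tables, and all 5 were found. RNA-Seq counts came from spheroids of FaDu and SAS cells, both established human HNSCC lines, after 4 days of culture at a diameter of 400 µm, with 3 independent experiments as replicates in each of 8 groups. Per spheroid type, the groups were Control (neither heated nor irradiated), HT (60 min at 42.5 °C), RT (1 dose, FaDu 7 Gy, SAS 10 Gy) and HT + RT (irradiated right after heating). RNA for directional libraries was collected 0.5 h after treatment. The 24 libraries held 15203484 to 29452514 counts each, with a median of 18378943.

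HSP70 proteins hold exposed hydrophobic stretches of unfolded proteins and release them in cycles of ATP binding and hydrolysis. J-domain proteins of the HSP40 family bring substrates and speed the hydrolysis, and nucleotide exchange factors such as BAG proteins and HSP110 proteins reset the cycle. On heating, the transcription factor HSF1 is freed from chaperones, forms trimers and binds heat shock elements, inverted repeats found before the start of many chaperone genes.

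The markers of the labelled cell type were present in every library. The 7 squamous epithelial markers (KRT5, KRT14, KRT17, KRT6A, TP63, CDH1 and EPCAM) summed to 3226 to 11170 CPM (counts scaled to a library size of 1e6, adjusted by TMM over the 24 libraries), with a median of 6689. KRT17 was the most abundant, at 1304 to 5875 CPM. The 5 leukocyte markers summed to 5.1 to 9.84 CPM, mostly CD14, and 3 of the 5 had at most 10 counts in any library. The 3 endothelial markers summed to 6.17 to 23.6 CPM. The 4 fibroblast markers summed to 1.65 to 65.8 CPM, with COL1A1 the most abundant, and 2 of the 4 stayed at or under 10 counts. No gene of these lists was at 0 in all libraries. COL1A1 moved with heat in SAS spheroids, from 1.33 ± 0.444 CPM in Control to 23.6 ± 7.11 CPM after HT (SD, n = 3 each), while in FaDu spheroids the means were 41.9 ± 5.78 and 53.8 ± 8.59 CPM. The fibroblast marker PDGFRB stood at 0.374 CPM in SAS Control and 0.291 CPM in SAS HT spheroids. Squamous markers also moved without overlap, such as TP63 in FaDu spheroids, from 248 ± 24.3 to 173 ± 12.3 CPM after HT. KRT6A went from 36.9 ± 1.46 to 64.8 ± 7.74 CPM in SAS spheroids. The part of these marker changes in the changes of the HSP70 genes was not tested.

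HSPA6 (ENSG00000173110) encodes a strictly stress-induced HSP70 protein, often called HSP70B', and lies at chr1:161524540-161526910 on the plus strand of GRCh38. The 250 bases before its start, at chr1:161524290-161524539 (RefSeq, GRCh38.p14, plus strand), are shown because this gene had nearly no counts without heat. Capitals mark heat shock elements, searched as the letters GAANNTTC and TTCNNGAA, which read the same on both strands.
HSPA6 promoter: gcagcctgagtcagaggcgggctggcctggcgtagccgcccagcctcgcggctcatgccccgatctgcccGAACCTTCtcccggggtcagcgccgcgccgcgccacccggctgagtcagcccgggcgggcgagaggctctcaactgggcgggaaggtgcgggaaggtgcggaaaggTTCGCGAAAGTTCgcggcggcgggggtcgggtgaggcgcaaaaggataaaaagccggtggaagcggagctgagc
The window held 3 such elements of 2 units, 180 to 173, 74 to 67 and 69 to 62 bases before the start. The last 2 overlap and together form an element of 3 units, 74 to 62 bases before the start. Of the 35116 RefSeq promoters of this length, 11.6% held an element of 2 units and 0.441% held an element of 3 units. The letters TATAAA and CCAAT, searched on both strands, did not occur in this window, and 70.8% of its bases were G or C. A match describes the letters, not a bound site.

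Without heat, HSPA6 was near the limit of detection. The FaDu Control libraries had 0.525, 0.509 and 0.294 CPM and the FaDu RT libraries 0.77, 0.746 and 0.235 CPM, which rest on 6 to 15 counts per library. The SAS Control libraries had 0.87, 0.342 and 1.06 CPM and the SAS RT libraries 1.75, 1.15 and 1.5 CPM. The values of the FaDu groups overlapped, whereas every SAS RT library was above every SAS Control library. After HT the FaDu libraries reached 3932, 4232 and 4988 CPM and after HT + RT 4254, 4759 and 5043 CPM. The SAS libraries reached 1546, 1936 and 2396 CPM after HT and 2306, 2398 and 2697 CPM after HT + RT. All heated libraries were far above all unheated ones, every heated FaDu library was above every heated SAS library, and within each type the HT and HT + RT values overlapped. As the libraries are bulk RNA, a change in the number of expressing cells and in RNA per cell cannot be told apart.

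HSPA7 (ENSG00000225217), annotated as an unprocessed pseudogene of this family, lies at chr1:161606291-161608217 on the plus strand, 79380 bases beyond the end of HSPA6. The aligned parts of the HSPA6 and HSPA7 transcripts are identical at 1899 of 1926 bases (98.6%). Of all stretches of 100 bases in HSPA7, 34.4% occur unchanged in HSPA6. How reads were assigned to near-identical, overlapping or antisense genes, and with which strand setting, is not given in the sources used here, so the values of each near-identical pair are also given as sums. Without heat, HSPA7 held 0 to 5 counts per library, with 6 over the FaDu Control, 2 over the FaDu RT, 7 over the SAS Control and 7 over the SAS RT libraries. After HT it reached 1201, 1223 and 1290 CPM in FaDu and 164, 172 and 175 CPM in SAS spheroids. After HT + RT it stood at 1211, 1212 and 1182 CPM in FaDu and at 184, 174 and 174 CPM in SAS spheroids. Replicates lay close together in these heated groups, with coefficients of variation from 1.4% to 3.72%, against 8.3% to 21.7% for HSPA6. Heated FaDu and heated SAS libraries did not overlap, and neither overlapped the unheated ones.

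**Figure D1:**
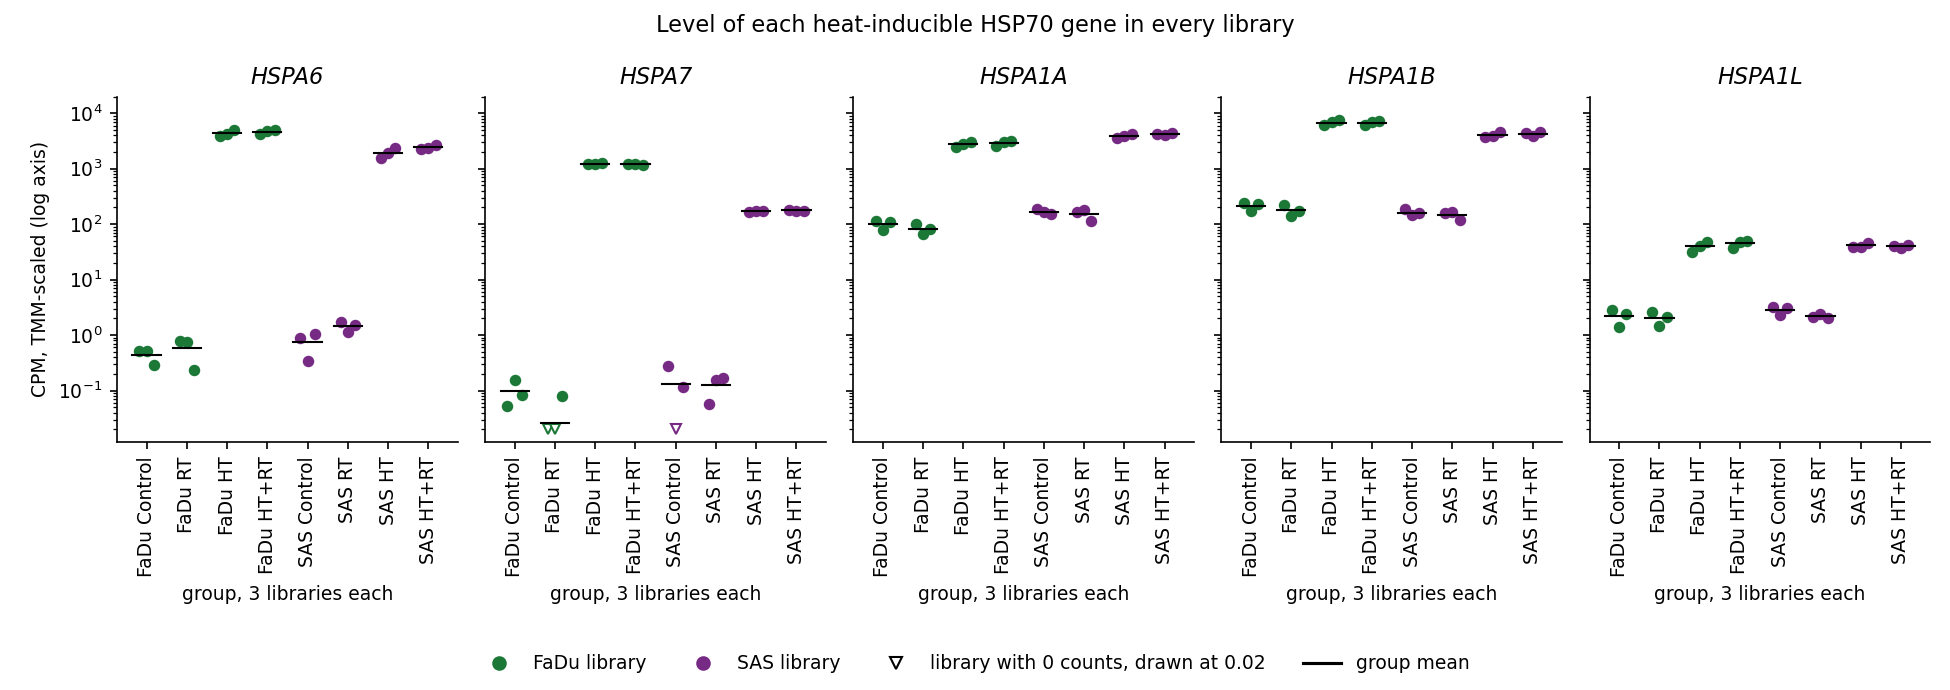
Level of each gene in each of the 24 libraries, as CPM on a log axis, with the group mean as a black line and libraries without a count drawn as open triangles at 0.02. All heated libraries lie above all unheated ones for each of the 5 genes.

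HSPA1A (ENSG00000204389, chr6:31815464-31817946, plus strand) and HSPA1B (ENSG00000204388, chr6:31827735-31830255, plus strand) encode the major inducible HSP70, and 9788 bases lie between the end of HSPA1A and the start of HSPA1B. Their transcripts are identical at 2288 of 2368 aligned bases (96.6%), and 69.9% of all stretches of 100 bases in HSPA1A occur unchanged in HSPA1B. The promoter of HSPA1B, at chr6:31827488-31827737 (RefSeq, GRCh38.p14, plus strand), is shown because this gene had the most counts of the family. Capitals mark the heat shock element, TATAAA, and CCAAT as it reads from the opposite strand.
HSPA1B promoter: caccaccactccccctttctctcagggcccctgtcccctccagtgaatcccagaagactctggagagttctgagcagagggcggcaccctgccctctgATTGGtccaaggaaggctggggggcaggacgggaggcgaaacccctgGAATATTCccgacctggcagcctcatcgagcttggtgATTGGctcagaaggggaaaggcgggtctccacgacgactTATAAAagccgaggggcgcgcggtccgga
It held 1 element of 2 units at 105 to 98 bases before the start, TATAAA at 29 to 24 bases, and CCAAT at 152 to 148 and at 68 to 64 bases. The HSPA1A window matched it at 235 of 249 aligned bases (94.4%) and held the same motifs 1 base farther out, the element at 106 to 99 bases. TATAAA was present in 10.7% and CCAAT in 32% of all promoters of this length. Unlike HSPA6, neither gene had an element of 3 units in this window.

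Both genes had clear counts without heat. HSPA1B stood at 244, 175 and 232 CPM in FaDu Control, at 222, 142 and 173 CPM in FaDu RT, at 186, 144 and 157 CPM in SAS Control and at 161, 166 and 121 CPM in SAS RT libraries. After HT it reached 6092, 6861 and 7485 CPM in FaDu and 3789, 3909 and 4504 CPM in SAS spheroids. After HT + RT it reached 6067, 6881 and 7222 CPM in FaDu and 4424, 3875 and 4591 CPM in SAS spheroids. The heated FaDu libraries were thus all above the heated SAS libraries, while HT and HT + RT overlapped within each type. HSPA1A had 115, 79 and 109 CPM in FaDu Control, 101, 66.6 and 80.5 CPM in FaDu RT, 187, 168 and 152 CPM in SAS Control and 165, 177 and 114 CPM in SAS RT libraries. After HT it reached 2482, 2811 and 3028 CPM in FaDu and 3549, 3895 and 4279 CPM in SAS spheroids, and after HT + RT 2603, 3029 and 3188 CPM and 4246, 4024 and 4395 CPM. For HSPA1A the order of the spheroid types was therefore the opposite, with every heated SAS library above every heated FaDu library. As a sum, the pair came to 9586 ± 972 CPM after HT in FaDu and 7975 ± 737 CPM in SAS spheroids (SD, n = 3 each).

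HSPA1L (ENSG00000204390, chr6:31809619-31815065, minus strand) encodes an HSP70 protein best known from the testis and reads away from HSPA1A, with 259 bases between the RefSeq starts. Its promoter window is the HSPA1A window read from the other strand at 241 of 250 bases, so both genes share the heat shock element, here at 161 to 154 bases before the HSPA1L start. HSPA1L had 1.38 to 3.15 CPM in the unheated libraries, from 27 to 58 counts each. It reached 31.6, 39.8 and 48.5 CPM in FaDu and 39.1, 39.4 and 46.2 CPM in SAS spheroids after HT. After HT + RT the values were 37.9, 48.2 and 50 CPM in FaDu and 41, 37.2 and 42.6 CPM in SAS spheroids. The 4 heated groups overlapped one another, as did the 4 unheated groups, and no heated library overlapped an unheated one. The aligned parts of the HSPA1L and HSPA1A transcripts are 80.7% identical. Of all stretches of 50 bases in HSPA1L, 2.44% occur unchanged in HSPA1A, and of those of 100 bases none do. As read assignment is not given, how many HSPA1L counts, if any, come from HSPA1A reads is not known.

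**Figure D2:**
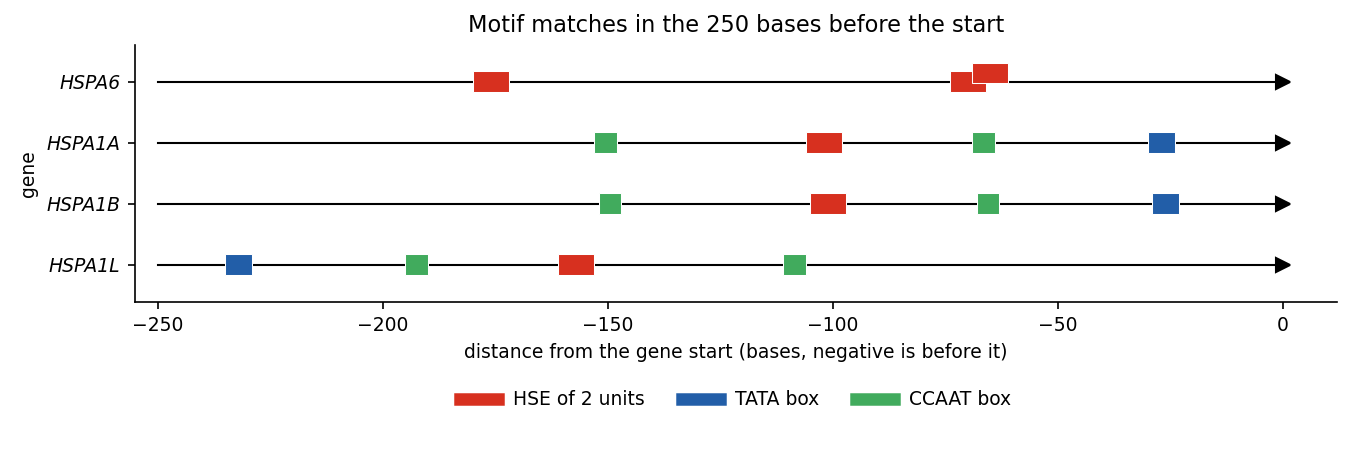
Motif matches in the 250 bases before the start of HSPA6, HSPA1A, HSPA1B and HSPA1L, by distance from the start, with the overlapping HSPA6 elements drawn offset. HSPA6 has 3 heat shock elements of 2 units and the other genes have 1 each.

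Per kilobase of exon, the order of the genes changed with heat. In FaDu Control spheroids it was HSPA1B (86.1 CPM per kb), HSPA1A (40.7), HSPA1L (0.863), HSPA6 (0.187) and HSPA7 (0.05), without overlap between neighbours. After HT in FaDu spheroids the order was HSPA1B (2702 CPM per kb), HSPA6 (1849), HSPA1A (1117), HSPA7 (642) and HSPA1L (15.7), again without overlap. HSPA6 thus passed HSPA1A and HSPA1L, and HSPA7 passed HSPA1L. In SAS Control spheroids HSPA1A (68.1 CPM per kb) and HSPA1B (64.3) overlapped, above HSPA1L (1.12), HSPA6 (0.32) and HSPA7 (0.0674). In SAS HT spheroids HSPA1B (1613 CPM per kb) and HSPA1A (1574) overlapped again, followed by HSPA6 (826), HSPA7 (88.3) and HSPA1L (16.3). The orders after HT + RT matched those after HT, and the orders after RT matched those in Control. Among the 56898 genes with a known exon length, HSPA6 moved from place 17321 by mean CPM per kb in FaDu Control to place 13 in FaDu HT, and from place 14867 to place 45 in SAS spheroids. HSPA1B held place 386 in FaDu Control and place 7 in FaDu HT, and place 647 and place 12 in SAS spheroids. Together the 5 genes took 0.0283% to 0.039% of all counts in FaDu Control and 1.4% to 1.81% in FaDu HT libraries. In SAS spheroids their share was 0.0298% to 0.0353% in Control and 0.85% to 1.03% in HT libraries.

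HT raised all 5 genes in both spheroid types. A gene was called changed where its edgeR adjusted p was under 0.05 and its absolute log2 fold change over 1. In FaDu spheroids 5 of 5 members were called higher after HT than in Control, against 4.29% of the 15879 genes tested. In SAS spheroids 5 of 5 were called higher, against 5.31% of 15000 genes. HSPA6 and HSPA7 reached these tests only through the heated groups, since they had almost no counts elsewhere. The median log2 fold change over all genes tested was 0.01 in FaDu and 0.00 in SAS spheroids.

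HSPA6 rose by a log2 fold change of 13.31 in FaDu spheroids (standard error 0.20, 95% interval 12.85 to 13.77, edgeR adjusted p = 2.4e-09) and of 11.36 in SAS spheroids (standard error 0.24, 95% interval 10.84 to 11.87, edgeR adjusted p = 2.2e-11). HSPA7 rose by 13.59 in FaDu (standard error 0.16, edgeR adjusted p = 4.9e-10) and by 10.29 in SAS spheroids (standard error 0.19, edgeR adjusted p = 1.5e-11). By fold change, HSPA7 and HSPA6 were first and second of all tested genes in FaDu, and HSPA6 was first and HSPA7 number 3 in SAS spheroids. The size of these folds is bounded by the few counts of the Control libraries. From summed counts alone, HSPA6 was 10188 times higher in FaDu (95% interval 7002 to 15460, from 27 Control counts) and 2598 times higher in SAS spheroids (1907 to 3636, from 40). For HSPA7 the ratio was 12915 in FaDu (5933 to 35194, from 6 counts) and 1286 in SAS spheroids (624 to 3201, from 7). These intervals cover counting error only, not the variation between replicates.

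HSPA1A, HSPA1B and HSPA1L, which start from higher levels, rose by smaller factors. HSPA1A rose by a log2 fold change of 4.80 in FaDu (standard error 0.16, 27.9-fold, edgeR adjusted p = 4.5e-07) and of 4.56 in SAS spheroids (standard error 0.09, 23.6-fold, edgeR adjusted p = 1.5e-11). HSPA1B rose 32-fold in FaDu (log2 standard error 0.15, 95% interval 4.65 to 5.35, edgeR adjusted p = 2.6e-07) and by 4.68 in SAS spheroids (standard error 0.10, 25.6-fold, edgeR adjusted p = 2.2e-11). HSPA1L rose by 4.21 in FaDu (standard error 0.24, 18.5-fold, edgeR adjusted p = 1.6e-05) and by 3.89 in SAS spheroids (standard error 0.13, 14.9-fold, edgeR adjusted p = 1.3e-09). They held places 41 (HSPA1B), 48 (HSPA1A) and 79 (HSPA1L) of all tested genes by fold change in FaDu, and places 75, 78 and 103 in SAS spheroids. As sums, HSPA6 with HSPA7 rose by 13.38 and 11.25, and HSPA1A with HSPA1B by 4.94 and 4.62, so that the rise did not depend on how reads were divided within a pair.

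**Figure D3:**
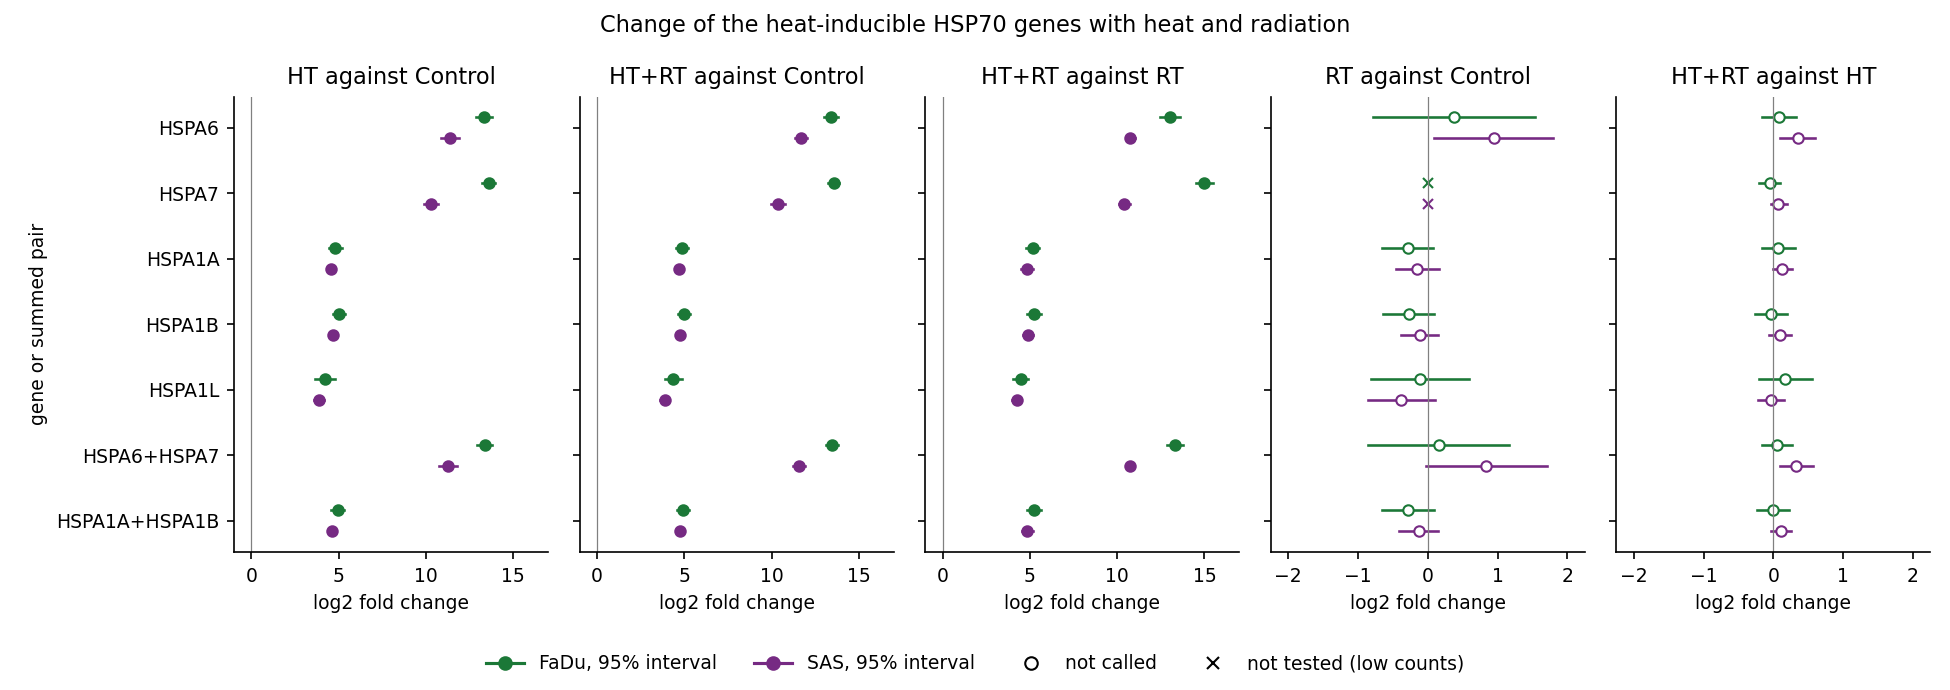
Log2 fold change of each gene and summed pair with its 95% interval in 5 comparisons, FaDu in green and SAS in purple, with open circles for values not called and crosses for genes not tested. The 3 comparisons of heated with unheated spheroids lie between 3.87 and 14.99, and the 2 comparisons of irradiated with unirradiated spheroids between -0.38 and 0.95.

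Combined treatment gave much the same values. Against Control, HT + RT raised 5 of 5 members in FaDu spheroids, beside 5.08% of all genes tested, and 5 of 5 in SAS spheroids, beside 5.76%. As with HT alone, HSPA6 and HSPA7 reached these tests only through the heated groups. The log2 fold changes in FaDu spheroids were 13.40 for HSPA6, 13.55 for HSPA7, 4.88 for HSPA1A, 4.97 for HSPA1B and 4.38 for HSPA1L. In SAS spheroids they were 11.71, 10.37, 4.69, 4.78 and 3.87 in the same order. Standard errors were between 0.07 and 0.20, and the highest edgeR adjusted p was 2.1e-06, that of HSPA1L in FaDu spheroids. These comparisons use the same Control libraries as those of HT, so they do not repeat them independently.

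Heat was also compared within irradiated spheroids, by setting HT + RT against RT. Here 5 of 5 members were called higher in FaDu, beside 4.76% of all genes tested, and 5 of 5 in SAS spheroids, beside 5.71%. HSPA7 reached these tests only through the heated groups, and so did HSPA6 in FaDu spheroids. HSPA6 rose by 13.05 (standard error 0.25) in FaDu and by 10.76 (standard error 0.12) in SAS spheroids. HSPA1A, HSPA1B and HSPA1L rose by 5.17, 5.25 and 4.49 in FaDu spheroids. In SAS spheroids the values were 4.83, 4.88 and 4.24, in both types with edgeR adjusted p of at most 3.6e-06. HSPA7 rose by 10.40 in SAS spheroids. In FaDu spheroids its fitted value of 14.99 rests on 2 counts in the RT libraries, both in replicate 3, and the ratio of summed counts was 38155 with a counting interval of 10562 to 315065. Without single libraries that fitted value ranged from 14.54 to 17.59.

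Radiation alone called no member in either type. In FaDu RT against Control, 0 of the 4 members tested were called by edgeR, 0 had an unadjusted p under 0.05 and 0 were called by DESeq2, beside 0.00643% of all genes (1 of 15552, with 791 under an unadjusted p of 0.05). HSPA7 had too few counts to be tested in this comparison in either type. The log2 fold changes were 0.37 for HSPA6 (95% interval -0.79 to 1.53), -0.29 for HSPA1A (-0.66 to 0.08), -0.27 for HSPA1B (-0.64 to 0.09) and -0.11 for HSPA1L (-0.81 to 0.59), each with an edgeR adjusted p of 1. The intervals of HSPA1A and HSPA1B thus reach no lower than -0.66, and that of HSPA6, with few counts, reaches beyond 1. Leaving out single libraries moved HSPA6 between 0.10 and 0.80, HSPA1A between -0.45 and -0.16, HSPA1B between -0.46 and -0.14 and HSPA1L between -0.35 and 0.08. With the replicate number as a block, 28 genes in all were called in place of 1. In that fit HSPA1A stood at -0.29 (edgeR adjusted p = 0.00161) and HSPA1B at -0.28 (edgeR adjusted p = 0.00135), under the fold change asked of a call.

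In SAS RT against Control, 0 of 4 members were called by edgeR and 0 by DESeq2, and 1 of 4 had an unadjusted p under 0.05, beside 0.0272% of all genes (4 of 14680, with 834 under an unadjusted p of 0.05). That member was HSPA6, at 22 to 31 counts per RT library against 6 to 18 per Control library, without overlap. Its log2 fold change was 0.95 (standard error 0.39, 95% interval 0.09 to 1.80, edgeR adjusted p = 0.826), and 0.98 with the replicate block (edgeR adjusted p = 0.218). HSPA1A stood at -0.15 (95% interval -0.45 to 0.16), HSPA1B at -0.11 (-0.38 to 0.15) and HSPA1L at -0.38 (-0.86 to 0.10). Without single libraries HSPA6 ranged from 0.61 to 1.26, HSPA1A from -0.28 to 0.03, HSPA1B from -0.20 to 0.02 and HSPA1L from -0.50 to -0.31, none of them called. With the block 25 genes in all were called in place of 4.

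Radiation after heat was read from HT + RT against HT. In FaDu spheroids edgeR called 0 of 5 members, with 0 under an unadjusted p of 0.05 and 0 called by DESeq2, beside 0% of all genes (0 of 16145, 361 under an unadjusted p of 0.05, 2 by DESeq2 and 3 with the replicate block). The log2 fold changes were 0.08 for HSPA6 (95% interval -0.16 to 0.33), -0.05 for HSPA7 (-0.20 to 0.09), 0.07 for HSPA1A (-0.17 to 0.31), -0.03 for HSPA1B (-0.26 to 0.20) and 0.17 for HSPA1L (-0.21 to 0.55). Changes above 0.55 thus lay outside every one of these intervals, and without single libraries the values ranged from -0.11 (HSPA1B) to 0.34 (HSPA1L). In SAS spheroids edgeR called 0 of 5 members, with 1 under an unadjusted p of 0.05 and 0 called by DESeq2, beside 0% of all genes (0 of 15341, 673 under an unadjusted p of 0.05, 3 by DESeq2 and 7 with the block). HSPA6 stood at 0.35 (95% interval 0.09 to 0.60, edgeR adjusted p = 0.893, and 0.36 with adjusted p = 0.00134 under the block), and at 0.21 to 0.51 without single libraries. The other members lay between -0.03 (HSPA1L) and 0.13 (HSPA1A), with intervals from -0.22 to 0.26 over these genes and values of -0.08 to 0.19 without single libraries.

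Whether heat acted differently in irradiated spheroids was tested as an interaction, the change from RT to HT + RT minus the change from Control to HT. In FaDu spheroids edgeR called 0 of 5 members, with 0 under an unadjusted p of 0.05 and 0 called by DESeq2, beside 0% of all genes (0 of 16793, 541 under an unadjusted p of 0.05, 1 by DESeq2 and 2 with the block). In SAS spheroids the members' counts were the same, beside 0.00632% of all genes (1 of 15833, and 5 with the block). The estimates for HSPA1A and HSPA1B were 0.36 (95% interval -0.12 to 0.83) and 0.24 (-0.23 to 0.70) in FaDu, and 0.27 (-0.09 to 0.63) and 0.20 (-0.13 to 0.53) in SAS spheroids. For HSPA1L they were 0.27 (-0.49 to 1.04) in FaDu and 0.34 (-0.07 to 0.74) in SAS spheroids. HSPA6 stood at -0.27 (-1.25 to 0.70) and -0.60 (-1.54 to 0.33), and HSPA7 at 1.38 (-0.21 to 2.98) and 0.12 (-1.37 to 1.60). Leaving out single libraries moved the HSPA7 estimates between 0.93 and 3.96 in FaDu and between -0.97 and 0.67 in SAS spheroids, and those of HSPA6 between -0.73 and 0.01 and between -0.91 and -0.27. In FaDu spheroids HSPA1A then ranged from 0.23 to 0.52, HSPA1B from 0.10 to 0.42 and HSPA1L from 0.09 to 0.51. In SAS spheroids the ranges were 0.09 to 0.40, 0.07 to 0.29 and 0.27 to 0.46. For HSPA6 and HSPA7, whose unheated counts were few, these intervals reach beyond 1 log2 unit.

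The levels of FaDu and SAS spheroids were also compared within each treatment. Between the Control groups 0 of 4 members tested were called by edgeR, and 0 by DESeq2, beside 38.1% of the 15810 genes tested. Of the 4 members, 2 had an edgeR adjusted p under 0.05 with a fold change too small for a call. HSPA1A was lower in FaDu Control (log2 difference of FaDu from SAS -0.71, standard error 0.12, edgeR adjusted p = 0.00034) and HSPA1B higher (0.45, standard error 0.12, edgeR adjusted p = 0.00623), and as a sum the pair stood at -0.03 (95% interval -0.29 to 0.23). HSPA6 stood at -0.76 (-1.79 to 0.27, edgeR adjusted p = 0.159) and HSPA1L at -0.34 (-0.96 to 0.27). Without SAS Control replicate 2, which had 6 HSPA6 counts, HSPA6 was called at -1.11 (edgeR adjusted p = 0.0383), while leaving out other libraries moved it as far as -0.46 the other way. HSPA1L ranged from -0.53 to -0.10.

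After HT, 2 of 5 members were called between the types, beside 40.1% of 16453 genes, a share close to that of all genes. HSPA6 was 2.29-fold higher in FaDu (log2 difference 1.20, standard error 0.15, edgeR adjusted p = 4.7e-05) and HSPA7 7.45-fold higher (2.90, standard error 0.07, edgeR adjusted p = 1.1e-09). HSPA1A was lower (-0.46, edgeR adjusted p = 0.00186) and HSPA1B higher in FaDu (0.78, edgeR adjusted p = 5.8e-05), both under the fold change asked of a call, and HSPA1L stood at -0.02 (95% interval -0.35 to 0.31). After HT + RT, 1 of 5 members was called, beside 40.4% of 16599 genes. That was HSPA7 at 2.76 (edgeR adjusted p = 1.1e-10), while HSPA6 stood at 0.93 (95% interval 0.75 to 1.11, edgeR adjusted p = 1.8e-06) and the sum of both was called at 1.16 (edgeR adjusted p = 1.7e-07).

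The heat response itself was called larger in FaDu spheroids for HSPA6 and HSPA7. HSPA7 reached this test only through the heated groups, with 6 counts over the FaDu Control and 7 over the SAS Control libraries. No conclusion is therefore drawn from its call. The difference between the types in the change from Control to HT was called for 2 of 5 members, beside 2.74% of 17219 genes. It was 1.98 for HSPA6 (standard error 0.53, 95% interval 0.84 to 3.12, edgeR adjusted p = 0.0425), 3.32 for HSPA7 (standard error 0.78, 1.65 to 4.99, edgeR adjusted p = 0.02) and 2.17 for their sum (standard error 0.50, 1.11 to 3.22, edgeR adjusted p = 0.0175). For HSPA1A it was 0.27 (-0.10 to 0.64), for HSPA1B 0.35 (-0.02 to 0.72) and for HSPA1L 0.34 (-0.31 to 0.99). With HT + RT the difference was called for 2 of 5 members, beside 3.4% of 17219 genes, at 1.73 for HSPA6 (standard error 0.39, edgeR adjusted p = 0.0128) and 3.20 for HSPA7 (standard error 0.76, edgeR adjusted p = 0.0171), from the same Control libraries and with unlike radiation doses. The calls of HSPA6 and HSPA7 depended on single libraries, most of them Control libraries with few counts. Without SAS Control replicate 1, the HT difference of HSPA7 was 2.18 (edgeR adjusted p = 0.491), and without SAS Control replicate 3 that of HSPA6 was 1.63 (edgeR adjusted p = 0.17).

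The division of counts within the near-identical pairs differed between the spheroid types. HSPA7 made up 23.4%, 22.4% and 20.5% of the HSPA6 and HSPA7 counts in the FaDu HT libraries and 22.2%, 20.3% and 19% in the FaDu HT + RT libraries. In SAS spheroids HT libraries had shares of 9.57%, 8.15% and 6.81%, and HT + RT libraries 7.4%, 6.78% and 6.06%. The exact Clopper-Pearson 95% intervals of the lowest and highest of these were 18.8% to 19.2% and 23.1% to 23.7% in FaDu, and 5.86% to 6.26% and 9.24% to 9.91% in SAS spheroids. The heated types did not overlap. Their means were 21.3% and 7.46%, a difference of 13.8 percentage points (exact two-sided permutation test, 6 libraries against 6, p = 0.00216, the smallest this design can give, 0.00433 after Benjamini-Hochberg adjustment over 6 tests). This test, like the others of shares, treats HT and HT + RT libraries of the same 3 experiments as independent, although same-numbered libraries deviated together. With HT libraries or HT + RT libraries alone, 3 against 3, the ranges also did not overlap, but the smallest p possible is 0.1. Without heat the shares ran from 0% to 25% on 6 to 32 pair counts per library, with intervals as wide as 3.19% to 65.1%. A difference between heated and unheated libraries was not detectable at this depth, at 8.07 points in FaDu (exact permutation p = 0.171, adjusted 0.205) and -2.36 points in SAS spheroids (exact permutation p = 0.576, adjusted 0.576). The FaDu value was 3.99 points with HT and Control libraries only and 12.1 points with HT + RT and RT libraries only.

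HSPA1B made up 68%, 68.9% and 68% of the HSPA1A and HSPA1B counts in FaDu Control, 68.8%, 68.1% and 68.3% in FaDu RT, 71%, 70.9% and 71.2% in FaDu HT and 70%, 69.4% and 69.4% in FaDu HT + RT libraries. In SAS spheroids the shares were 49.8%, 46.2% and 50.8% in Control, 49.3%, 48.4% and 51.6% in RT, 51.6%, 50.1% and 51.3% in HT and 51%, 49.1% and 51.1% in HT + RT libraries. FaDu and SAS libraries were thus apart with and without heat. The heated means were 70.3% and 50.7%, a difference of 19.6 points (exact permutation p = 0.00216, adjusted 0.00433). Within FaDu spheroids, the pooled heated libraries were 1.99 points above the unheated ones, from 68.3% to 70.3% (exact permutation p = 0.00216, adjusted 0.00433), without overlap. The pooled groups were unlike, with means of 68.3% in Control and 71.1% in HT, against 68.4% in RT and 69.6% in HT + RT, and HT and HT + RT did not overlap. Within SAS spheroids the difference was 1.35 points with overlap (exact permutation p = 0.145, adjusted 0.205).

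**Figure D4:**
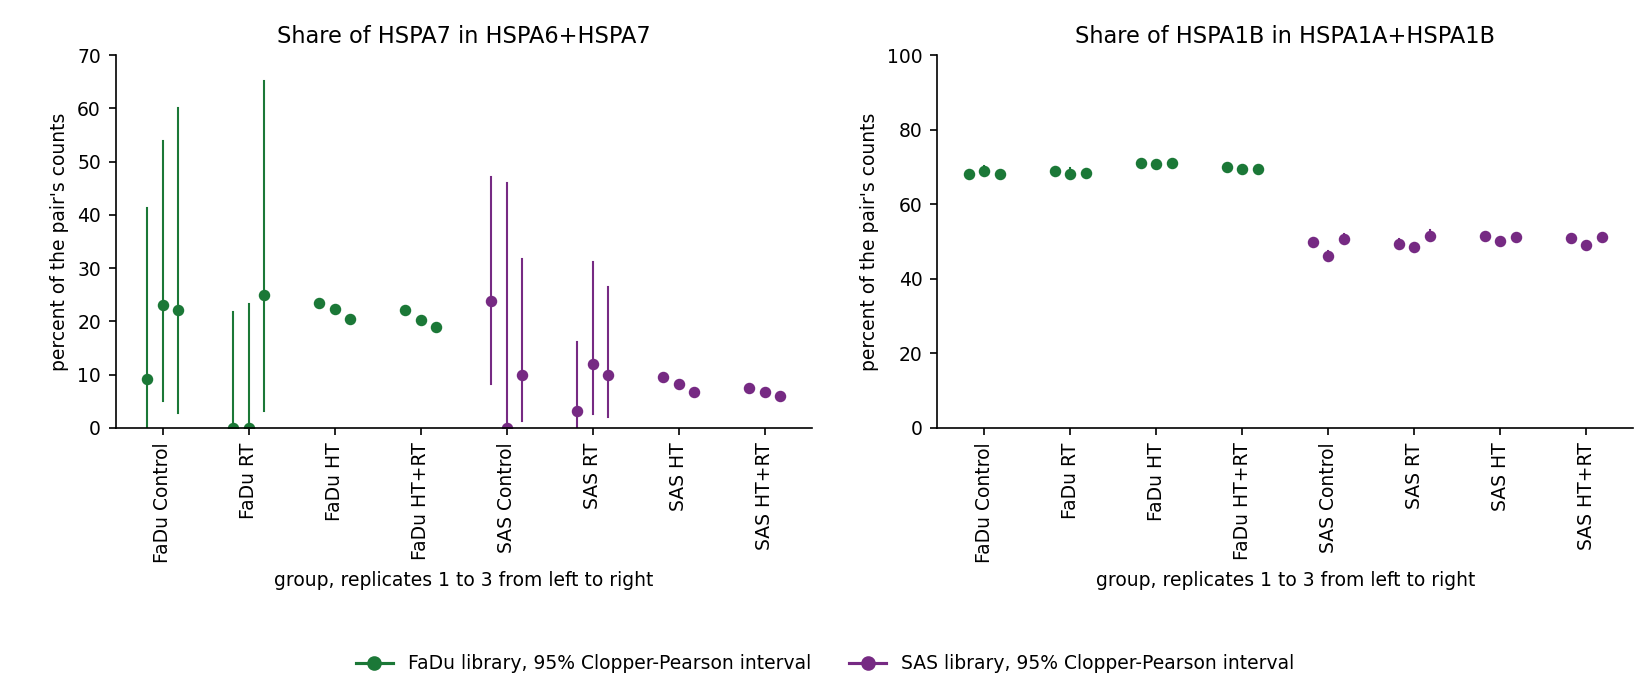
Share of HSPA7 in the counts of HSPA6 and HSPA7, and of HSPA1B in the counts of HSPA1A and HSPA1B, in percent for each library, with exact Clopper-Pearson 95% intervals as bars, many of them shorter than the points. Heated FaDu libraries hold 19% to 23.4% HSPA7 and heated SAS libraries 6.06% to 9.57%.

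Partners of HSP70 moved with heat in part. Over all genes tested, 4.29% were called higher after HT in FaDu and 5.31% in SAS spheroids, so a list of 10 to 13 genes with 1 call is near that share. Of 12 other HSP70 and HSP110 genes, 1 was called higher after HT in FaDu (median log2 fold change 0.03, against 0.01 over all genes) and 3 of 11 tested in SAS spheroids (median 0.27, against 0.00). HSPH1, an HSP110 nucleotide exchange factor, rose by 1.57 in FaDu and 2.85 in SAS spheroids. HSPA4 and HSPA4L, of the same family, stood at -0.09 and 0.46 in FaDu spheroids. In SAS spheroids HSPA4 rose by 1.15, and HSPA4L from a mean of 26.6 to 118 CPM. Of 13 J-domain partners, 4 were called higher in FaDu (median 0.38) and 5 in SAS spheroids (median 0.69). Among them DNAJB1, the main HSP40 partner of inducible HSP70, rose by 4.96 and 4.23, DNAJA4 by 3.64 and 4.48, DNAJB4 by 3.03 and 4.53, and DNAJA1 by 1.15 and 1.87. Of 10 nucleotide exchange factors and other co-chaperones, 1 was called higher in each type (medians 0.11 and 0.12). This was BAG3, which links HSP70 to selective autophagy, at 1.57 in FaDu and 2.99 in SAS spheroids. No gene of these lists was called lower after HT, beside 107 of 15879 genes in FaDu and 107 of 15000 in SAS spheroids. After HT + RT, the numbers called higher were 1, 4 and 1 in FaDu and 3, 6 and 2 in SAS spheroids. Of all genes tested, 5.08% in FaDu and 5.76% in SAS spheroids were then called higher. RT alone called 0 genes of these lists in either type, near the share over all genes (0.00643% in FaDu and 0.0272% in SAS spheroids).

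No heat shock factor or regulator was called after HT, which for a list of 5 genes is near the share over all genes (4.29% in FaDu and 5.31% in SAS spheroids called higher). Of HSF1, HSF2, HSF4, HSBP1 and HSF2BP, edgeR called 0 of 5 after HT in each type, with 2 (FaDu) and 4 (SAS) under an unadjusted p of 0.05. Over all genes tested, 4885 of 15879 in FaDu and 5323 of 15000 in SAS spheroids lay under that edgeR p. HSF1 stood at 0.16 in FaDu (standard error 0.10, edgeR adjusted p = 0.319) and 0.12 in SAS spheroids (standard error 0.05, edgeR adjusted p = 0.134). HSF2 stood at -0.36 and -0.33 (edgeR adjusted p = 0.0515 and 0.0598), and HSBP1, a negative regulator of HSF1, at 0.17 and 0.36 (edgeR adjusted p = 0.0883 and 0.00241), under the fold change asked of a call. HSF4 stood at 0.16 and 0.62 and HSF2BP at -0.10 and 0.43. By contrast, of 14 other heat shock proteins induced through HSF1, 8 were called higher in FaDu (median 1.23) and 11 in SAS spheroids (median 1.55). ZFAND2A, a proteasome adaptor, rose by 4.18 and 3.40, and SERPINH1, a collagen chaperone, by 1.68 and 3.41. The small heat shock protein HSPB8 rose by 2.64 and 6.07, the latter from only 6 to 10 counts per SAS Control library. CRYAB, also a small heat shock protein, rose by 2.20 in FaDu spheroids. It had 0 counts in all SAS Control libraries and 74 to 114 in the SAS HT libraries, at least 93-fold higher with a floor of 3 counts over the group.

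Some genes of the 5 lists differed between the types in their HT response, with a larger response in SAS spheroids. The HSPA6 estimate lay on the side of FaDu spheroids (1.98, edgeR adjusted p = 0.0425), but its call depended on single libraries. From the HSPA7 call no conclusion is drawn. Of the 54 list genes, 8 were called with a larger response in SAS and 0 with a larger one in FaDu spheroids. Of all 17219 genes tested, 256 were called with a larger response in SAS and 215 in FaDu spheroids, together 2.74%. The list medians were -0.08 for the other HSP70 and HSP110 genes, -0.24 for the J-domain partners, -0.08 for the co-chaperones, -0.16 for the heat shock factors and -0.48 for the other HSF1-induced genes, against 0.03 over all genes. The 8 were HSPA4 (-1.21, edgeR adjusted p = 8.3e-07), HSPA4L (-1.70, 0.00382), HSPH1 (-1.25, 0.00706), DNAJB4 (-1.47, 0.00296), BAG3 (-1.39, 0.00291), HSPB8 (-3.40, 0.00201), SERPINH1 (-1.70, 3.7e-06) and CRYAB, whose fitted value is no bound because its SAS Control counts were 0. The HSPB8 value rests on 6 to 10 counts per SAS Control library. DNAJB1 stood at 0.76 (edgeR adjusted p = 0.00496) and ZFAND2A at 0.81 (edgeR adjusted p = 0.0864), on the side of FaDu spheroids but not called. For the HT + RT response, the 5 lists in the order above had 3, 1, 0, 0 and 3 genes called with a larger response in SAS spheroids. In FaDu spheroids 0 were called larger, beside 340 (SAS) and 246 (FaDu) of 17219 genes. An element of 2 units stood before 1 of 10 of the other HSP70 and HSP110 genes with a promoter entry, 2 of 13 J-domain partners, 2 of 7 co-chaperones, 0 of 3 heat shock factors and 4 of 11 of the other HSF1-induced genes. Over all 35116 promoters the share was 11.6%, and whether any list differed from it was not tested.

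**Figure D5:**
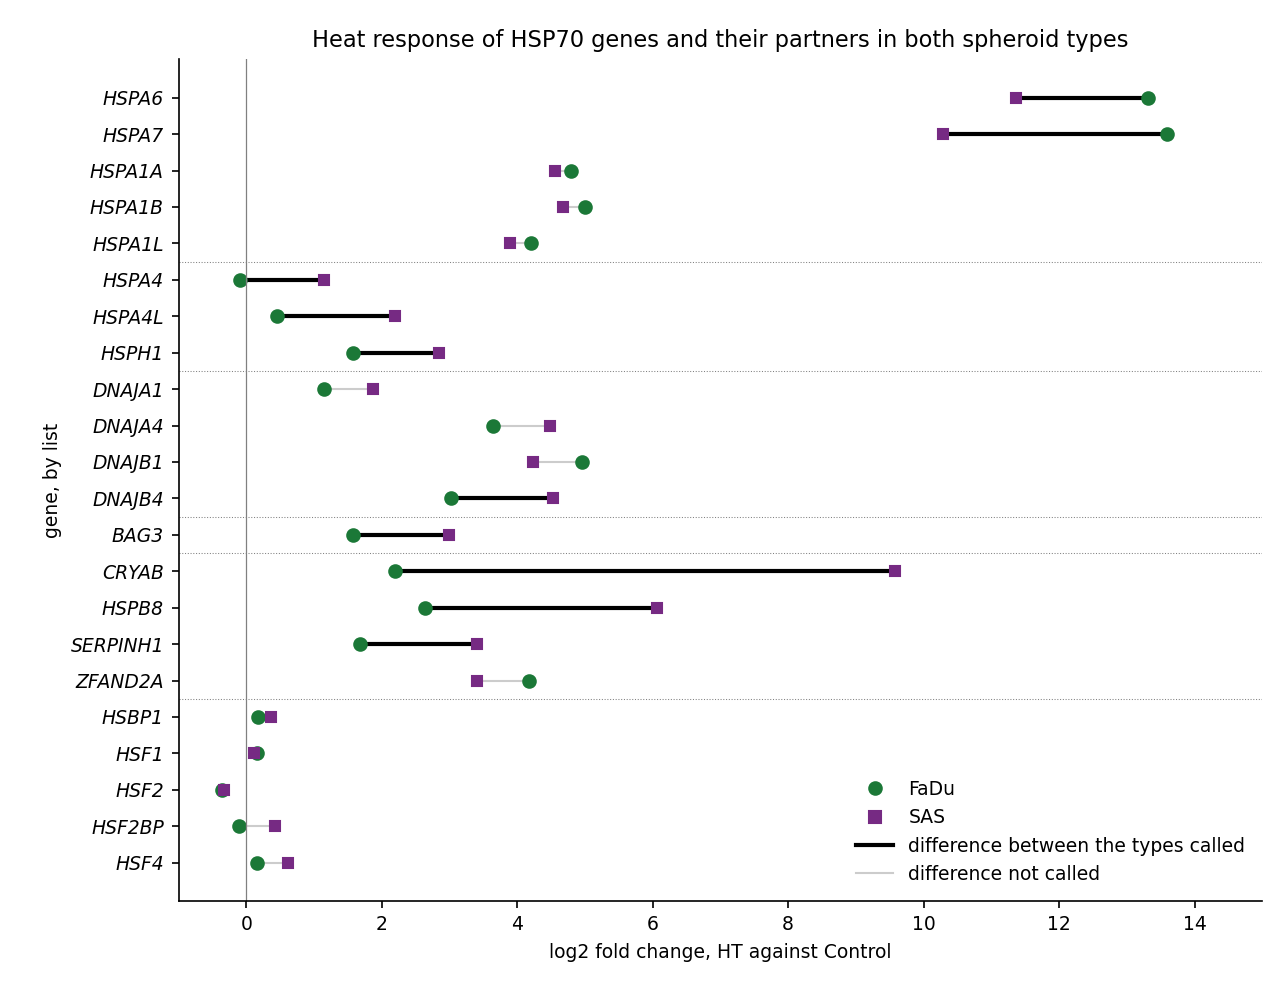
Log2 fold change from Control to HT in FaDu (circles) and SAS (squares) spheroids for the 5 members and for named genes of each list, joined by a black line where the difference between the types was called. HSPA6 and HSPA7 lie farther right in FaDu, and HSPA4, HSPA4L, HSPH1, DNAJB4, BAG3, CRYAB, HSPB8 and SERPINH1 farther right in SAS spheroids.

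The genes most like the members depended on the measure. By Pearson correlation of log2 CPM with a prior count of 2, among 18220 genes, DNAJB1 was the most like HSPA6 (r = 0.996), HSPA1A (0.993) and HSPA1L (0.995) and number 2 for HSPA7 (0.981) and HSPA1B (0.985). Also among the 5 genes nearest to HSPA6 were TDRG1 (0.987), AC005841.1 (0.986) and FBXL14 (0.982). AC005841.1 was nearest to HSPA7 (0.987), followed after DNAJB1 by TDRG1 (0.976), PNMA8A (0.975) and C1orf52 (0.973). TDRG1 was nearest to HSPA1B (0.986), with AC005841.1 (0.985), C1orf52 (0.981) and TENT5C (0.979). The 5 nearest to HSPA1A also held FBXL14 (0.988), C17orf67 (0.985) and TDRG1 (0.981), and those nearest to HSPA1L held TDRG1 (0.984), FBXL14 (0.980) and AC005841.1 (0.977). The 24 points fall into heated and unheated libraries and share groups and spheroid types, so they are not independent. By Spearman rank, 0 of the 5 nearest genes of HSPA6, HSPA7 and HSPA1A and 1 of those of HSPA1B and HSPA1L were the same, and within FaDu or SAS libraries alone 0 to 2 were the same. TDRG1 had 0 or 1 count in each unheated library and 19 to 46 in each heated one. PNMA8A had 0 or 1 and 7 to 35, and AC005841.1 had 0 to 5 and 95 to 406. The correlations of these 3 genes thus rest on few or no counts without heat.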

How the data were processed

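The deposited counts, raw read counts per gene from RNA-Seq, were read from 7 tables, in which 18 repeated control columns were identical. How the authors aligned and counted reads and the strand setting are not given in the sources used here. Per the labels the build is mm9, a mouse build, although the samples are human, so the build used is unsure. The gene identifiers are human. Of 57500 genes, 602 were not found in GENCODE v29 (0.0217 percent of counts). The members and lists were chosen with earlier results of these data known. Genes of a list are named where they were called in HT against Control in either type, at most 4 per list and type by size of change, and the heat shock factors are all named. 1 gene that this rule names is not reported here.

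Each of 17 comparisons was fitted with edgeR 4.0.16 (R 4.3.3, quasi-likelihood F test, TMM, filterByExpr with a minimum count of 10) on the libraries of its groups alone, with Benjamini-Hochberg adjustment over all tested genes. Genes were called where the log2 fold change exceeded 1 in size, with an adjusted p below 0.05. Shares were compared by exact permutation of libraries. Replicate numbers were checked for pairing by asking whether libraries with equal numbers lay on the same side of their group means (correlation of deviations). All correlations were over 0.1 in 9 comparisons within a type (0.15 to 0.57). The pairing is thus read from the data and not from the labels. Alternatives were DESeq2 1.42.0, RLE size factors, other count filters, all 24 libraries in 1 fit, a replicate block, summed pairs and leaving out each library. Python 3.11.15, numpy 2.4.6, scipy 1.17.1, Biopython 1.88 and matplotlib 3.10.9 were also used.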

Additional observations from a re-analysis of the deposited data

Results flagged for a closer look

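The heat response of HSPA6 and HSPA7 was called different between the spheroid types, by an edgeR test of the difference itself. HSPA7 entered this test only through the heated groups, with 6 counts over the FaDu Control and 7 over the SAS Control libraries. No conclusion is therefore drawn from its call. From Control to HT, FaDu spheroids rose more than SAS spheroids by a log2 difference of 1.98 for HSPA6 (edgeR adjusted p = 0.0425), 3.32 for HSPA7 (edgeR adjusted p = 0.02) and 2.17 for their sum (edgeR adjusted p = 0.0175). From Control to HT + RT the differences were 1.73 for HSPA6 (edgeR adjusted p = 0.0128), 3.20 for HSPA7 (edgeR adjusted p = 0.0171) and 1.90 for the sum (edgeR adjusted p = 0.00574), with the same Control libraries and with unlike radiation doses.

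The call of HSPA6 after HT ended without any of the 3 FaDu Control libraries, FaDu HT replicates 2 or 3, SAS Control replicates 1 or 3, or SAS HT replicate 2. That of HSPA7 ended without FaDu Control replicate 3 or SAS Control replicates 1 or 3, and so did that of the sum. After HT + RT, the call of HSPA6 ended without FaDu Control replicate 3 or SAS Control replicates 1 or 3, and that of HSPA7 without SAS Control replicate 1. The call of the sum after HT + RT held without each library, with an edgeR adjusted p of at most 0.0442.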

How the results depend on the processing

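The rise of members and pairs with heat was called under every alternative in which they were tested. Its 42 results had 494 values under the alternatives, and all 494 were still called up. The filter of at least 10 counts in every library left out HSPA7, with at most 5 counts per unheated library, in every comparison of heat. It also left out HSPA6 and the sum of HSPA6 and HSPA7, except in SAS HT + RT against RT. Where a gene was left out, its rise was not tested under this filter. Of 656 values of the 53 called results, 638 were still called in the same direction. Of 885 values of the 63 results not called, 883 stayed so. Of the same 885, 32 had the other sign. No called result reversed.

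Leaving out each library moved the difference in HT response to between 1.63 and 2.32 for HSPA6, 2.18 and 3.88 for HSPA7 and 1.88 and 2.55 for their sum. For HT + RT the ranges were 1.37 to 2.01, 2.05 to 3.70 and 1.60 to 2.22. Between the Control groups, HSPA6 ranged from -1.11 to -0.46 and the sum of HSPA6 and HSPA7 from -1.10 to -0.46, both called without SAS Control replicate 2 only. Such a set has fewer libraries, and beyond that the cause was not tested. The share of HSPA7, heated minus unheated FaDu, was 3.99 points with HT against Control libraries only and 12.1 with HT + RT against RT libraries only. The cause was not tested.

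The replicate block moved the genes called from 1 to 28 in FaDu RT against Control, from 4 to 25 in SAS RT against Control, from 0 to 3 in FaDu and 0 to 7 in SAS HT + RT against HT, and from 0 to 2 and 1 to 5 in the FaDu and SAS interactions. It changed no call of a member. In SAS HT against Control (correlations of 0.03 to 0.18), the interactions and all fits over both types, not every correlation was over 0.1.

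In other fits, FaDu RT against Control called 12 with DESeq2, 28 with no filter for low counts and 12 with all 24 libraries in 1 fit, in place of 1. SAS RT against Control called 10, 30 and 8 in place of 4. Leaving out each library gave 0 to 8 in FaDu RT and 0 to 5 in SAS RT against Control, 0 to 1 in HT + RT against HT in either type, and 0 to 1 (FaDu) and 0 to 2 (SAS) in the interactions. HT + RT against HT called 2 and 3 (FaDu) and 3 and 7 (SAS) with DESeq2 and with no filter for low counts, in place of 0, and 1 in SAS with all 24 libraries in 1 fit. The interactions called 1 and 18 (FaDu, in place of 0) and 2 and 9 (SAS, in place of 1) with these settings, and 1 in FaDu with all 24 libraries in 1 fit. With no filter for low counts, FaDu HT against Control called 1382 in place of 789, FaDu HT + RT 1487 against Control in place of 910 and 1385 against RT in place of 857, and SAS HT + RT against Control 1436 in place of 950. With at least 10 counts in every library, which tests fewer genes, FaDu called 463, 484 and 461 and SAS 512 (in place of 904), 552 (950) and 584 (999) in HT and in HT + RT, each set against Control, and in HT + RT set against RT. FaDu against SAS then called 3661 (6020) in Control, 4026 (6599) in HT and 3986 (6706) in HT + RT, and the difference in HT + RT response 367 (586).

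The limits are 3 libraries per group, 1 time point of 0.5 h, 1 temperature, 1 radiation dose per type and RNA without protein. Folds of HSPA6 and HSPA7 rest on few unheated counts, at most 32 per library for the pair. For near-identical genes, how reads were assigned is not given, so the sums stand beside the single genes.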

Other observations

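No gene beside the members was called with HT where it could be tested, and those on chromosome 1 had few counts. Only VARS, LSM2 and C6orf48 were tested, and 0 calls among 3 genes is near the share over all genes. That share was 4.29% in FaDu and 5.31% in SAS spheroids called higher. Next to the HSPA1L, HSPA1A and HSPA1B cluster on chromosome 6, the log2 fold change from Control to HT was 0.01 in FaDu and 0.12 in SAS spheroids for VARS, 0.10 and 0.24 for LSM2, and 0.40 and 0.22 for C6orf48 (edgeR adjusted p = 0.0518 and 0.0237). All 3 stayed under the fold change asked of a call. Next to HSPA6 and HSPA7 on chromosome 1, the Fc receptor gene FCGR2A had 0 to 8 counts per unheated and 5 to 16 per heated library, and FCGR2C had 0 in all unheated and 1 to 9 in each heated library. AL590385.2, which spans HSPA6, had 0 counts in every library.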
